A study of Mus musculus with 6 samples.

Results

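The growth hormone, STAT5 and IGF1 axis is described here through 10 genes in the liver, namely Ghr, Stat5a, Stat5b, Socs2, Cish, Bcl6, Cux2, Igf1, Igfals and Igfbp2. The genes were chosen by name as parts of the axis, with earlier results of these data known. All 10 were found among the 18453 genes with any count. Of these, 9 were among the 13431 genes tested between vectors, and Cux2 was too low to be tested. Livers came from Mettl14f/f male mice, whose Mettl14 alleles are floxed in both groups. HFD feeding began at 8 weeks of age and lasted 10 weeks before tail vein injection of AAV8-TBG-GFP (control) or AAV8-TBG-Cre, and RNA was taken 8 weeks after the vector. In these adeno-associated virus vectors the thyroxine-binding globulin (TBG) promoter restricts expression to hepatocytes, so the alleles of other liver cells are not targeted. The labels give the genotype as WT for the GFP group and METTL14 KO for the Cre group, with 3 replicate livers each, called GFP1 to GFP3 and Cre1 to Cre3 below. Fragments assigned to transcripts ranged from 20356459 to 21010524 per library.

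Growth hormone from the pituitary binds GHR on hepatocytes, and the kinase JAK2 on the receptor phosphorylates STAT5B and STAT5A, which enter the nucleus and activate genes such as Igf1, Igfals, Socs2 and Cish. CISH and SOCS2 then damp the receptor's signal, and the repressors BCL6 and CUX2 act on the same targets in males and females, respectively. Growth hormone reaches the male mouse liver in pulses and the female liver more steadily, and STAT5 target RNAs in single male livers can follow the last pulse.

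Before the axis itself, the labels and the tissue were checked. Mettl14, the targeted gene, was at 6.30, 6.43 and 5.81 CPM (counts scaled to library size with TMM factors) in GFP1 to GFP3 and at 4.96, 5.38 and 4.86 CPM in Cre1 to Cre3. Its difference, Cre over GFP, was -0.29 ± 0.15 (SE) on the log2 scale (edgeR, adjusted p = 0.337), so RNA over the whole gene did not pass the test and the group is referred to as the livers labelled AAV8-TBG-Cre. In FPKM, which is scaled by transcript length, Mettl14 was at 2.31, 2.31 and 2.01 in GFP1 to GFP3 and at 1.92, 2.4 and 1.82 in Cre1 to Cre3. The groups overlapped on that scale, with Cre2 the highest of the 6 livers. Transcripts were not resolved by exon, so a recombined transcript would still be counted. Alb, the main secreted protein of hepatocytes, was at 70992 ± 9237 CPM in the GFP livers and 62080 ± 6783 CPM in the Cre livers (SD, n = 3). The libraries were named with 2 digits (GFP1, GFP2, Cre1) or 4 digits (GFP3, Cre2, Cre3), which the labels do not explain, so log2 ratios of mean CPM within each form are given for the 9 tested axis genes and for some of the genes around them. In bulk RNA, fewer cells of a type and less RNA per cell cannot be told apart.

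Levels between the 10 genes were compared as FPKM, which is scaled by transcript length. In the GFP livers Ghr was at a mean of 217 FPKM and Igfbp2 at 194, followed by Igfals at 68.3 and Igf1 at 65.3. Bcl6 (15.2), Stat5b (12.5), Cish (7.59), Stat5a (6.28) and Socs2 (4.08) formed a lower tier in mean FPKM, and Cux2, a female-specific gene in mouse liver, was near 0 at 0.0267 FPKM. Only 3 neighbours in this order had ranges that did not overlap, Igfbp2 above Igfals, Igf1 above Bcl6 and Socs2 above Cux2. In the Cre livers Igfbp2 led with 647 ± 539 FPKM, and its range overlapped that of Ghr at 174 ± 36.0 FPKM. Igf1 (88.2 ± 18.0 FPKM) stood above Igfals (57.4 ± 13.9 FPKM) there without overlap. Mean FPKM of Stat5a (5.12 ± 1.07) came after that of Socs2 (7.09 ± 2.41), with ranges that overlapped.

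**Figure D1:**
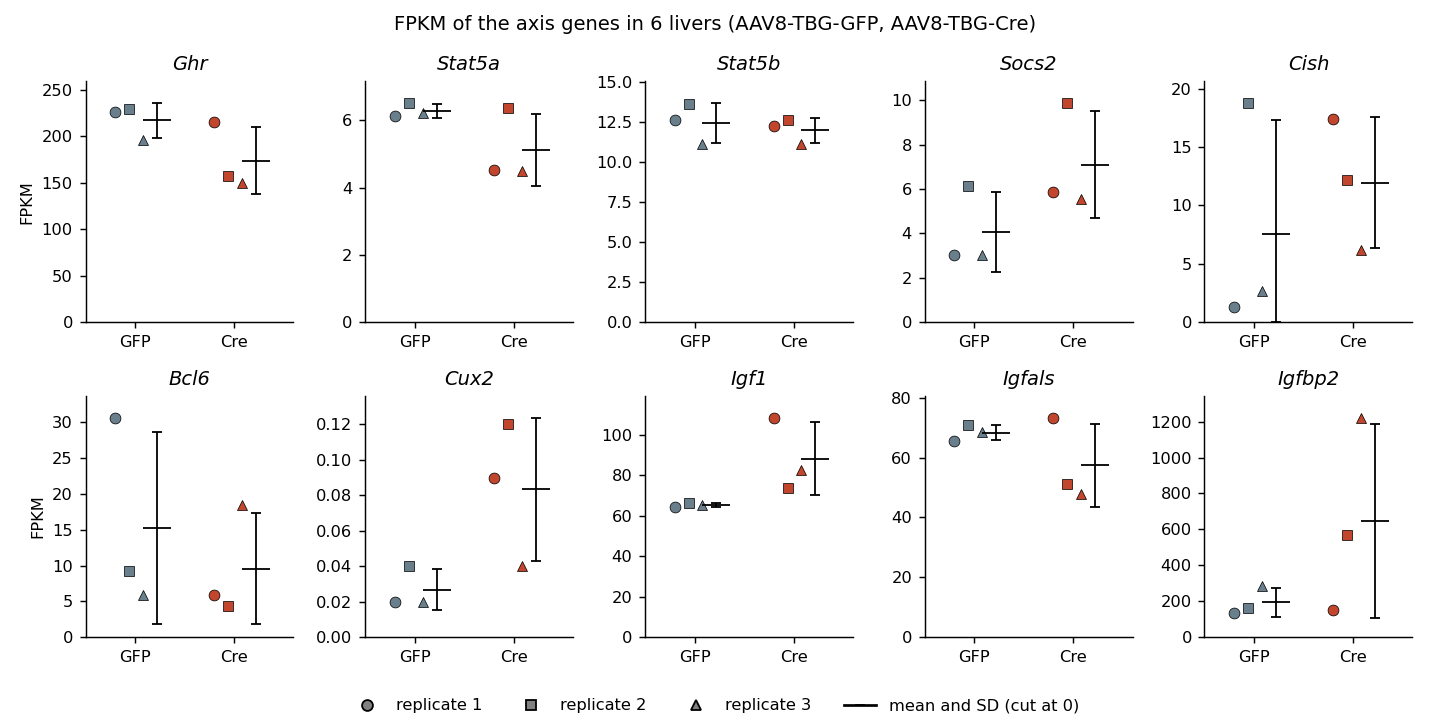
FPKM of the 10 axis genes (vertical axes, each from 0) in the 3 AAV8-TBG-GFP and 3 AAV8-TBG-Cre livers, where symbols mark replicates and bars give the mean and SD. Igfbp2 spans 151 to 1221 FPKM within the Cre livers and Cish 1.31 to 18.8 FPKM within the GFP livers, while Stat5a in the Cre livers runs from 4.49 to 6.36 FPKM and so reaches into the GFP range.

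Between vectors, Ghr and Stat5a had lower means in the Cre livers, and no gene of the axis passed correction over all genes in the main edgeR test. Stat5a and Ghr were the 2 of 9 tested genes called lower at an unadjusted p under 0.05 with a fold of at least 1.2, the study's own threshold, and none was called higher. These 2 were 22.2% of the tested axis genes, close to the 20.5% of all genes tested that were called in either direction. Of all genes tested, 8.41% were called lower and 12.0% higher. At an adjusted p under 0.05, edgeR called 0 of the 9 genes and 0.931% of all genes, and DESeq2 called 1, Stat5a (adjusted p = 0.028), among 7.44% of all genes. At the unadjusted threshold DESeq2 called 3, Igfals beside Ghr and Stat5a, among 16.2% of all genes. The median log2 difference of the 9 genes was -0.23, beside -0.01 over all genes tested.

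Ghr (gene ID 14600, chr15:3317755-3583352 in GRCm38.p6, the release of mm10) encodes the growth hormone receptor. It was at 614, 626 and 547 CPM in GFP1 to GFP3 and at 555, 355 and 390 CPM in Cre1 to Cre3. Cre1 lay inside the GFP range, and Cre2 and Cre3 lay below all GFP livers. The mean fell from 596 ± 42.1 to 433 ± 106 CPM, a log2 difference of -0.46 ± 0.19 (SE; edgeR, unadjusted p = 0.0457, adjusted p = 0.229). This call was lost when any library but Cre1 was left out (unadjusted p = 0.0512 to 0.125), and without Cre1 the difference was -0.68 with an adjusted p of 0.0436. Cre1 is the only Cre liver with a 2-digit name. The fit without it compares Cre livers of 4-digit names with GFP livers of both forms. By library name form, the log2 ratio of means was -0.16 for the 2-digit and -0.55 for the 4-digit names.

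Ghr fragments came almost wholly from 2 transcripts, whose shares show the receptor and its shorter form separately. Mouse Ghr also gives an mRNA for the soluble growth hormone-binding protein, which holds the part of the receptor outside the cell. In the GENCODE vM1 models on NCBIM37, transcripts of 4175 and 2749 nt encode a protein of 650 residues through 1953 coding nt, and transcripts of 1171 and 1213 nt encode 297 residues through 894 coding nt. The deposited transcript NM_001048178, at 1335 nt, is shorter than the 1953 nt that code for the receptor. It carried 26.4%, 27.4% and 28.5% of the gene's expected count in GFP1 to GFP3 and 26.1%, 25.1% and 27.5% in Cre1 to Cre3, and NM_001286370, at 4003 nt, carried nearly all the rest. Scaled by length, the 1335-nt transcript made up 53.6% ± 1.37 of Ghr FPKM in the GFP and 52.1% ± 1.53 in the Cre livers (SD, n = 3). The groups overlapped in this share (exact two-sided permutation test on the share of counts, p = 0.3, where 3 against 3 cannot go below 0.1).

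Stat5a and Stat5b encode the transcription factors that carry the receptor's signal, STAT5B being the main form in liver. Stat5a (gene ID 20850, chr11:100859351-100885169) and Stat5b (gene ID 20851, chr11:100780731-100859004) are neighbours with 346 bases between them, and as paralogs they may share fragments. Stat5a was at 23.9, 26.1 and 25.5 CPM in GFP1 to GFP3 and at 16.8, 20.3 and 17.3 CPM in Cre1 to Cre3. Every Cre liver lay below every GFP liver. The mean fell from 25.2 ± 1.1 to 18.1 ± 1.88 CPM, a log2 difference of -0.47 ± 0.11 (edgeR, unadjusted p = 0.00306, adjusted p = 0.0792). Unlike Ghr, Stat5a differed to a like extent within both library name forms, with log2 ratios of -0.57 and -0.44.

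Stat5b was at 65.9, 72.5 and 61.3 CPM in GFP1 to GFP3 and at 60.2, 53.8 and 56.4 CPM in Cre1 to Cre3. The groups did not overlap here either, with a log2 difference of -0.23 ± 0.11 that missed the threshold (edgeR, unadjusted p = 0.063, adjusted p = 0.265) and passed it without GFP3 (-0.30, unadjusted p = 0.0377). Within the 2-digit names the log2 ratio was -0.20 and within the 4-digit names -0.15. Stat5a and Stat5b were the 2 of 9 genes whose CPM did not overlap between groups, beside 27.0% of all genes tested. Summed, so that fragments divided between the paralogs do not matter, they were at 91.7 ± 6.14 CPM in the GFP and 74.9 ± 1.82 CPM in the Cre livers, a ratio of 0.817 (exact two-sided permutation p = 0.1). In FPKM their sum was 18.7 ± 1.38 in the GFP and 17.1 ± 1.72 in the Cre livers, with groups that overlapped (ratio 0.914, exact permutation p = 0.3).

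The differences of Stat5a and Stat5b were smaller in FPKM than in CPM. Under other scalings of the counts, edgeR still called Stat5a (RLE, unadjusted p = 0.00372, and upper quartile, unadjusted p = 0.0103). TMM scaling set the total of Cre2 at 1.18 times and that of GFP3 at 0.913 times its counted fragments, while FPKM uses no such factor. In FPKM, Stat5a was at 6.11, 6.51 and 6.22 in GFP1 to GFP3 and at 4.51, 6.36 and 4.49 in Cre1 to Cre3, so Cre2 fell inside the GFP range and the call was lost (limma on log2(FPKM + 1), unadjusted p = 0.0951). The limma fit differs from edgeR in the test as well as in the scale. Stat5b in FPKM was 12.5 ± 1.24 in the GFP and 12.0 ± 0.782 in the Cre livers. On the log2(FPKM + 1) scale the median of all genes itself was 0.11 higher in the Cre livers. Relative to that median the difference of Stat5a was -0.38, that of Stat5b -0.16 and that of Ghr -0.45.

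**Figure D2:**
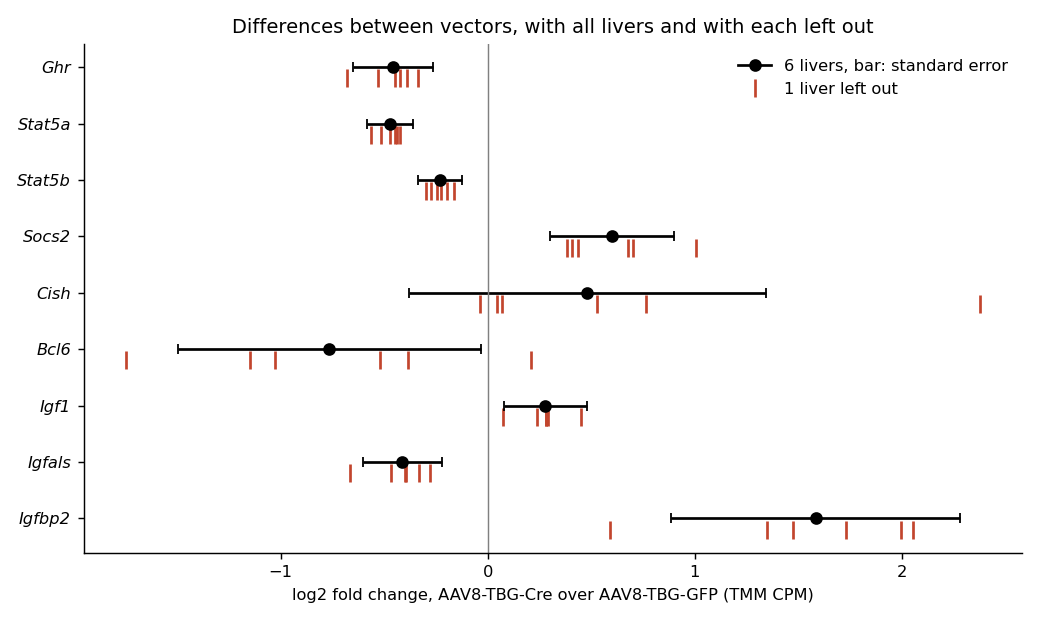
Log2 fold change (horizontal axis, AAV8-TBG-Cre over AAV8-TBG-GFP, TMM CPM) of the 9 tested axis genes, as points with standard errors over the 6 livers and as red ticks with each liver left out. The ticks of Stat5a stay between -0.56 and -0.42, whereas those of Cish run from -0.04 to 2.38 and those of Bcl6 from -1.75 to 0.21.

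The feedback genes Cish and Socs2, direct targets of STAT5, had higher means in the Cre livers, and neither passed the test. Dimers of STAT5 bind the palindrome TTCNNNGAA, and BCL6 recognises a similar motif. The motif was searched in RefSeq windows from 250 bases before to 50 bases after each start site (GRCm38.p6), where it reads the same on both strands, and 8.30% of 32851 windows held it. Of the axis genes 9 had a window and 3 of them, Cish, Igfals and Bcl6, held the motif, in 5 of 17 windows, while Socs2 had no window in the table. The stretches around the matches are shown because these 3 genes include the 2 whose levels varied most among the GFP livers, with the motif in capitals, 5′ to 3′ on the gene's strand.
Cish, chr9:107296654-107296683, plus strand: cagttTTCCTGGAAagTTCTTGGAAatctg
Bcl6, chr16:23981353-23981461, minus strand: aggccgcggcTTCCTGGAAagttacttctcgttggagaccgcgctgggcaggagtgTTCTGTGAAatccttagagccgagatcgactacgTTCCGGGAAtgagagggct
Bcl6, chr16:23988952-23988980, minus strand: agcaaattagTTCTCAGAAttccagaggc
Igfals, chr17:24877598-24877626, plus strand: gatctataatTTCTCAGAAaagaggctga
Igfals, chr17:24878163-24878191, plus strand: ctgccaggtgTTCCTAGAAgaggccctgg
Cish held 2 motifs next to each other at its start site, and 1 Bcl6 window held 3, at 168, 122 and 88 bases before the start site. Windows with 2 or more motifs made up 0.457% of all windows, and 11 windows held 3 or more. A match describes the letters only and is not evidence of binding.

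Cish (gene ID 12700) encodes a SOCS family protein induced by growth hormone that limits STAT5 activation. It was at 4.12, 60.0 and 9.0 CPM in GFP1 to GFP3 and at 51.7, 31.4 and 19.1 CPM in Cre1 to Cre3. GFP2 was the highest of all 6 livers and GFP1 the lowest, a 14.6-fold range within the GFP group that held all the Cre livers, whose own range was 2.71-fold. The log2 difference was 0.48 ± 0.86 (edgeR, unadjusted p = 0.592, adjusted p = 0.793). Without GFP2 it was 2.38 with an unadjusted p of 0.0024 (adjusted p = 0.19), and without GFP1 it was -0.04. The log2 ratio was 0.69 within the 2-digit and 1.49 within the 4-digit names.

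Socs2 (gene ID 216233, chr10:95383903-95417321) encodes a SOCS protein whose loss in mice causes overgrowth, as it restrains growth hormone signalling. It was at 7.01, 14.3 and 7.43 CPM in GFP1 to GFP3 and at 12.8, 18.4 and 12.3 CPM in Cre1 to Cre3. The GFP liver with the highest Cish, GFP2, also had the highest Socs2 of its group and lay among the Cre livers. In the Cre group the 2 genes differed, with Cish highest in Cre1 and Socs2 highest in Cre2. The log2 difference was 0.60 ± 0.30 (edgeR, unadjusted p = 0.0816, adjusted p = 0.303), and without GFP2 it was 1.01 (unadjusted p = 0.0032, adjusted p = 0.194). It was 0.26 within the 2-digit and 1.05 within the 4-digit names as a log2 ratio of means. On log2(FPKM + 1) limma called Socs2 higher in the Cre livers, at 0.69 before and 0.58 after taking off the shift of all genes (unadjusted p = 0.0446, adjusted p = 0.245). The transcript NM_007706 held 93.1%, 64.6% and 93.1% of the Socs2 count in GFP1 to GFP3 and 82.9%, 62.9% and 61.3% in Cre1 to Cre3, so that the groups overlapped through GFP2 (exact two-sided permutation p = 0.2).

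Bcl6 (gene ID 12053, chr16:23965050-23988866) encodes a repressor that is more abundant in male liver and whose RNA falls when STAT5 is active. It was at 106, 32.5 and 21.6 CPM in GFP1 to GFP3 and at 19.6, 12.4 and 62.7 CPM in Cre1 to Cre3. GFP1, with the lowest Cish of all livers, had the highest Bcl6, and in the Cre group the liver with the highest Bcl6, Cre3, had the lowest Cish. The other end of the order did not match. GFP2 and Cre1 had the highest Cish of their groups, but Bcl6 was lowest in GFP3 and Cre2. The log2 difference was -0.76 ± 0.73 (edgeR, unadjusted p = 0.327, adjusted p = 0.599), and it turned to 0.21 without GFP1 and reached -1.75 without Cre3 (unadjusted p = 0.0433, adjusted p = 0.262). Within the 2-digit names the log2 ratio was -1.83 and within the 4-digit names 0.80.

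Cux2 (gene ID 13048, chr5:121857962-122050415) encodes a repressor of male-biased genes found in female liver. It had 2, 4 and 2 counts in GFP1 to GFP3 and 9, 12 and 4 counts in Cre1 to Cre3. The groups met at 4 counts, and no level above 0.493 CPM was seen in any liver. In the 3 fits that kept such low genes its unadjusted p lay between 0.0562 and 0.119.

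The spread of these genes within groups was set beside that of the 11296 genes with a mean of at least 1 on the log2 CPM scale, whose median within-group SD was 0.19. Cish had an SD of 1.48, Igfbp2 of 1.2 and Bcl6 of 1.2, larger than in 99.8%, 99.5% and 99.5% of these genes. Socs2 followed with an SD of 0.46, larger than in 89.8%. Stat5a (0.11) and Stat5b (0.10) varied less than most genes, with a smaller SD in only 20.3% and 16.7% of them. Differences of Cish, Bcl6 and Igfbp2 between vectors were therefore measured with less precision than those of the STATs.

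The secreted products of the axis did not move as one. Igf1 (gene ID 16000, chr10:87858265-87937047) encodes insulin-like growth factor 1, the hormone through which the liver passes on the growth hormone signal. It was at 477, 502 and 516 CPM in GFP1 to GFP3 and at 763, 450 and 600 CPM in Cre1 to Cre3. Cre2 lay below all GFP livers, and Cre1 and Cre3 lay above them. The log2 difference was 0.28 ± 0.20 (edgeR, unadjusted p = 0.205, adjusted p = 0.48). In FPKM the groups did not overlap, with 64.1 to 66.3 in the GFP and 73.8 to 108 in the Cre livers, and limma called Igf1 higher (log2(FPKM + 1), 0.41 before and 0.30 after taking off the shift of all genes, unadjusted p = 0.0253, adjusted p = 0.204). Without Cre2 edgeR called it as well (0.45, unadjusted p = 0.0233), but without Cre1 the difference was 0.07 (unadjusted p = 0.668). Within the 4-digit names its log2 ratio was 0.03 against 0.64 within the 2-digit names.

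Igf1 fragments were divided over 4 transcripts with at least 5% of the count, of which NM_010512 and NM_001111275 carried the most. NM_010512 held 38.1% ± 1.49 of the count in the GFP and 41.0% ± 4.8 in the Cre livers, and NM_001111275 held 34.9% ± 0.756 and 34.5% ± 2.37 (SD, n = 3). Over the 6 axis genes with several such transcripts, none of 15 transcripts had a share that did not overlap between groups, and the smallest exact permutation p was 0.2. The share of the Stat5b transcript NM_011489 was 17.9% ± 7.67 in the GFP and 9.39% ± 1.5 in the Cre livers, with GFP3 at 9.77% inside the Cre range.

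**Figure D3:**
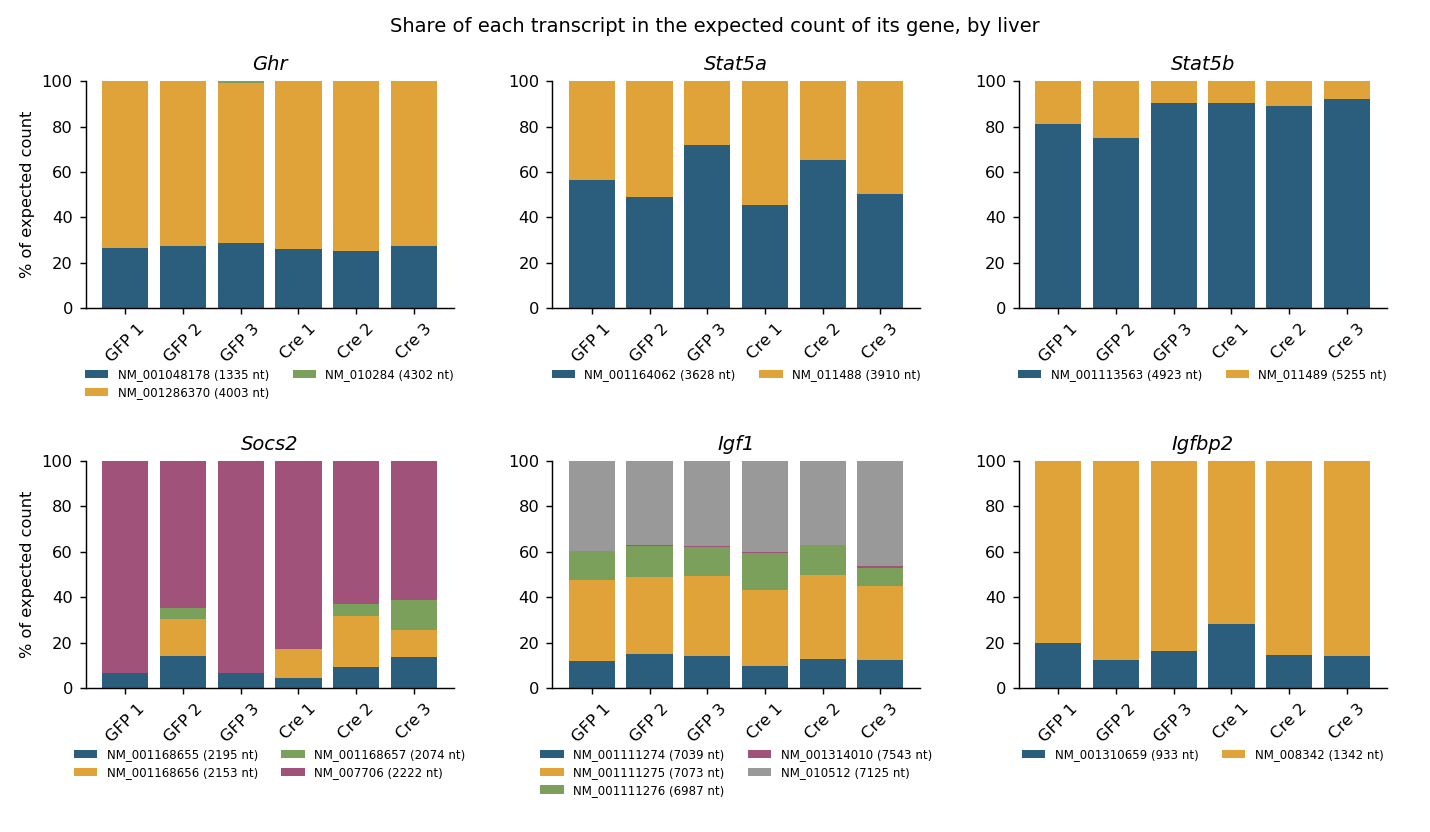
Share of each deposited transcript (vertical axis, percent of the expected count of its gene) in each of the 6 livers, for the 6 axis genes with at least 2 transcripts of 5% or more. The 1335-nt Ghr transcript stays between 25.1% and 28.5% in all livers, while the Socs2 and Stat5b shares differ between GFP livers.

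Igfals (gene ID 16005, chr17:24877844-24882011) encodes the acid-labile subunit, which holds IGF1 and its binding protein in a stable complex in blood. It was at 144, 158 and 159 CPM in GFP1 to GFP3 and at 152, 92.1 and 102 CPM in Cre1 to Cre3. As with Ghr, Cre1 lay inside the GFP range and Cre2 and Cre3 below it. The log2 difference was -0.41 ± 0.19 (edgeR, unadjusted p = 0.0652, adjusted p = 0.271), and -0.66 without Cre1 (adjusted p = 0.0314). The fit without Cre1 mixes vector and name form, as for Ghr. The log2 ratio was 0.01 within the 2-digit and -0.71 within the 4-digit names.

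Igfbp2 (gene ID 16008, chr1:72824480-72852474) encodes an IGF-binding protein that in liver is usually high when growth hormone action or insulin is low. It was at 168, 216 and 389 CPM in GFP1 to GFP3 and at 175, 603 and 1543 CPM in Cre1 to Cre3. Cre1 lay within the GFP range, and the other two Cre livers lay above it, Cre3 at 8.83 times Cre1. The log2 difference was 1.59 ± 0.70 (edgeR, unadjusted p = 0.0541, adjusted p = 0.247). Without Cre1 it was 2.06 (adjusted p = 0.0466) and without Cre3 0.59 (unadjusted p = 0.324). Without GFP3 it was 2.00 (unadjusted p = 0.0455). The 3 livers with 4-digit names were the 3 highest. The log2 ratio was -0.14 within the 2-digit names, opposite to the pooled difference, and 1.46 within the 4-digit names, and with the name form in the model the difference was 0.66 (edgeR, unadjusted p = 0.224). Ghr, Igfals and Igfbp2 were the axis genes that passed an adjusted p under 0.05 once Cre1 was left out, beside 6.78% of all genes in that fit. That fit keeps only Cre livers with 4-digit names, so vector and name form are partly confounded in it. With Stat5a, 4 were called at the unadjusted threshold there, beside 27.3% of all genes.

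Genes around the axis were counted in 5 lists. Of 22 genes of GH receptor signalling, all tested, 3 were called higher and 4 lower, with a median log2 difference of 0.02, or 31.8% called beside 20.5% of all genes tested. The higher ones were the adaptors and inhibitors Socs3, Grb10 and Sh2b2, and the lower ones included Stat5a, Ghr and the prolactin receptor gene Prlr. The groups of Ghr and Prlr overlapped in CPM. Socs3, which damps cytokine receptors and is induced by STAT3, was at 10.4, 16.3 and 12.5 CPM in GFP1 to GFP3 and at 18.0, 18.4 and 45.1 CPM in Cre1 to Cre3, with Cre3 far above the rest (1.06 ± 0.37, edgeR unadjusted p = 0.0233). Grb10, an adaptor that inhibits insulin and IGF1 receptor signalling, rose from 3.72 ± 1.26 to 7.82 ± 2.34 CPM (1.07 ± 0.31, unadjusted p = 0.00937), with log2 ratios of 0.58 within the 2-digit and 1.81 within the 4-digit names. Sh2b2, an adaptor that binds JAK2, rose from 1.98 ± 0.402 to 3.73 ± 0.507 CPM (0.91 ± 0.24, unadjusted p = 0.00589). Jak2, the kinase itself, was at 15.8 to 17.7 CPM in all 6 livers. None of these passed an adjusted p under 0.05.

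In the IGF system, 13 of 17 genes were tested, 2 were called higher and none lower, with a median log2 difference of 0.09, or 15.4% called beside 20.5% of all genes. Both were binding proteins outside the endocrine complex. Igfbp6 was at 0.102, 0.051 and 0.157 CPM in GFP1 to GFP3 and at 0.620, 1.19 and 1.01 CPM in Cre1 to Cre3 (3.13 ± 0.53, edgeR adjusted p = 0.046). The GFP livers held 6 counts of it in all and the Cre livers 63, a scaled ratio of 9.28 (exact 95.0% interval for counting error only, 4.03 to 26.2), and the fitted difference depends on the prior count at such levels. Igfbp7, abundant in vessels and stroma, rose from 81.1 ± 25.8 to 142 ± 44.6 CPM (0.81 ± 0.29, unadjusted p = 0.0251), with log2 ratios of 0.23 within the 2-digit and 1.6 within the 4-digit names. Igfbp4 at 1616 to 2247 CPM, Igfbp1 at 31.7 to 79.4 CPM and Igfbp3 at 9.05 to 15.2 CPM had groups that overlapped.

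Markers of some other liver cells differed between the groups beside these genes. Calls here are at the unadjusted threshold, at which 12.0% of all genes tested were called higher and 8.41% lower. All 8 tested cholangiocyte markers of 9 listed were called higher in the Cre livers. Their summed level was 72.2 to 128 CPM in the GFP and 306 to 574 CPM in the Cre livers. Most of these sums was 1 gene, Spp1, at 38.0 to 89.0 CPM in the GFP and 219 to 457 CPM in the Cre livers. Of 10 macrophage and Kupffer cell markers 7 were called higher and 9 had a positive log2 difference, with sums of 215 to 246 and 314 to 427 CPM. Of 9 stellate cell and fibroblast markers 4 were called higher and 6 had a positive difference, with sums of 239 to 366 and 467 to 972 CPM. Of 9 endothelial markers none was called higher and 1 lower, with sums of 174 to 279 and 182 to 215 CPM. None of the 9 had a positive difference (median -0.30). Of 10 hepatocyte markers 1 was called higher and 1 lower, and 4 had a positive difference. Among T and NK cell markers 3 of 7 were tested, with 1 called higher and 1 lower. The 1 tested B cell marker of 4 was called higher. Among 4 tested neutrophil markers of 5 listed, 2 were called higher and 1 lower. The part of these cells in the differences of Igfbp6, Igfbp7, Grb10, Sh2b2, Igf1 and Igfbp2 was not tested.

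Of 15 transcription factors that act with or under growth hormone in liver, 14 were tested, 1 was called higher (Foxa3) and 3 lower, with a median log2 difference of -0.05, or 28.6% called beside 20.5% of all genes. Nr1i3, the xenobiotic receptor CAR, fell from 180 ± 14.6 to 96.5 ± 17.7 CPM without overlap (-0.90 ± 0.15, edgeR adjusted p = 0.0491), and Cebpb, a bZIP factor of the acute phase and of gluconeogenesis, fell from 246 ± 13.4 to 157 ± 25.9 CPM (-0.65 ± 0.15, adjusted p = 0.0735). Both fell within either library name form. The third, Tox, had groups that overlapped, as did Foxa3.

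Among genes with a sex bias in liver, most of them under growth hormone control, calls went in both directions. Of 19 tested male-biased genes 1 was called higher and 5 lower, with a median log2 difference of -0.37, and of 15 tested female-biased genes 2 were called higher and 2 lower, with a median of 0.27. These calls were 31.6% of the male-biased and 26.7% of the female-biased genes, beside 20.5% of all genes, of which 12.0% were higher and 8.41% lower. Called or not, 3 of the 19 male-biased and 10 of the 15 female-biased genes had a positive log2 difference. Over all genes it was 6585 of 13431. Elovl3, a male-biased fatty acid elongase, fell in every Cre liver, from 50.8, 68.5 and 70.8 CPM to 11.7, 11.8 and 17.3 CPM (-2.22 ± 0.20, edgeR adjusted p = 0.0149). Hsd3b5, a male-specific steroid dehydrogenase, was at 26.4, 42.8 and 2.20 CPM in GFP1 to GFP3 and at 1.67, 0.370 and 2.07 CPM in Cre1 to Cre3, so that GFP3 was close to the Cre livers (-4.14 ± 1.02, unadjusted p = 0.00396), and the log2 ratio was -4.37 within the 2-digit and -0.85 within the 4-digit names. Cyp2u1 (-1.0 ± 0.35, edgeR adjusted p = 0.172) and Mup3 (-0.98 ± 0.41, adjusted p = 0.226) fell in CPM, with groups of Mup3 that overlapped in FPKM. Cyp4a12b rose (1.99 ± 0.53, edgeR adjusted p = 0.097, with 0.60 within the 2-digit and 2.82 within the 4-digit names). The Mup and Cyp4a12 families hold near-identical copies among which fragments may be divided.

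On the female side, Prom1, also a marker of bile duct and progenitor cells, rose from 1.16 ± 0.272 to 5.92 ± 3.49 CPM (2.35 ± 0.45, edgeR adjusted p = 0.0586). Cyp2a4 rose from 3.36 ± 1.75 to 12.2 ± 1.29 CPM (1.86 ± 0.37, adjusted p = 0.0601), while Cyp2b13 fell from 6.73 ± 3.45 to 0.295 ± 0.392 CPM (edgeR adjusted p = 0.0553). Mean Cyp2b9 fell from 164 ± 60.4 to 44.7 ± 45.7 CPM (edgeR adjusted p = 0.19). Its Cre2 value of 97.0 CPM was close to GFP2 at 99.4 CPM, and the groups overlapped in FPKM. These Cyp genes also have close copies, and their values are uncertain for that reason.

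**Figure D4:**
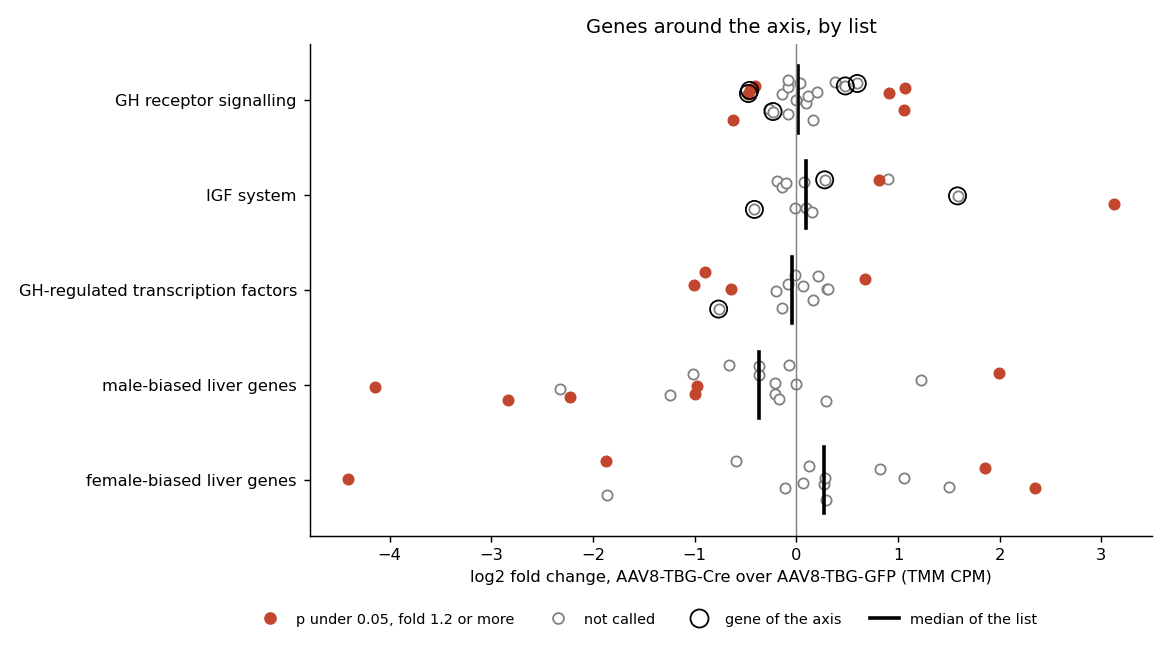
Log2 fold change (horizontal axis, AAV8-TBG-Cre over AAV8-TBG-GFP, TMM CPM) of each tested gene in 5 lists around the axis, with called genes filled in red, axis genes ringed and list medians as black lines. Medians lie between -0.37 (male-biased) and 0.27 (female-biased), and the called genes point both ways in 4 of the lists.

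Genes with the profile most like Stat5a and Ghr over the 6 libraries were found by the root mean square difference of log2 CPM after centring each gene on its mean, among 11296 genes. Nearest to Stat5a were Wdr91 (0.036), Pparg (0.046), the nuclear receptor that drives fat storage, and Syn3 (0.047), beside a median of 0.308 over all genes. Pparg was at 21.0, 22.8 and 21.8 CPM in GFP1 to GFP3 and at 15.9, 17.5 and 15.0 CPM in Cre1 to Cre3. Nearest to Ghr were Tmem14c (0.038), Acy3 (0.040) and Aamdc (0.047), beside a median of 0.352. Each of these had Cre2 and Cre3 below Cre1, which follows from their choice by likeness to Ghr.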

How the data were processed

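Liver RNA was sequenced on a DNBseq platform. Per library, the files deposited by the authors hold expected counts (RSEM estimates, not normalized) and FPKM for RefSeq transcripts, and 1 table holds FPKM per gene. The submitters' processing notes name HISAT2, Bowtie2, RSEM and mm10, and the methods name STAR, HTSeq and DESeq2, in both cases without versions. Expected counts were summed per gene ID and rounded. The main test was the edgeR 4.0.16 quasi-likelihood test in R 4.3.3 (TMM, filterByExpr, vector only), with Benjamini-Hochberg adjustment over all genes. SE came from the quasi-F statistic. DESeq2 1.42.0 and limma 3.58.1 on log2(FPKM + 1) (genes reaching 0.5 FPKM in 3 or more libraries) served as alternatives. Steps were tested on simulated data. Counting error falls with the level and is larger for genes near 1 CPM. P-values of the fits set the difference between vectors against the spread between livers of a group, estimated with information shared across genes. Permutation p-values give the share of divisions of the 6 libraries with a difference at least as large. The smallest chi-square per gene between replicates was 24.9. Named genes were the 10 axis genes, called genes of each list without overlap in CPM (up to 5 per direction), and the nearest profiles to the 2 axis genes with the smallest p. Other names were added after their values were seen. One gene that the rule names is not reported here. The axis genes and lists were chosen with earlier results of these data known. Of 160 listed genes 159 were found. Start-site windows and coordinates came from RefSeq on GRCm38.p6. No sample was left out.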

Additional observations from a re-analysis of the deposited data

How the results depend on the processing

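The 9 axis genes were refitted under 16 alternatives each. The direction of every gene was kept except without GFP1, where Cish was at -0.035 and Bcl6 at 0.21 on the log2 scale (ranges with a liver left out, -0.035 to 2.38 and -1.75 to 0.21). Stat5a was called in 13 of 16 alternatives and missed in the 3 limma fits, and Ghr was called in 7 of 16. The 2 axis genes called became 4 without a filter on low counts, 1 with limma without filter and 0 at a fold of 1.5, and ranged from 1 to 4 with a liver left out. By adjusted p the count of 0 became 1 with DESeq2 and ranged from 0 to 3 with a liver left out. It was highest without Cre1, the only Cre liver with a 2-digit name. The 7 calls in GH receptor signalling became 4 with limma without filter and 4 at a fold of 1.5 (range 4 to 8 with a liver left out). The 2 in the IGF system became 5 with DESeq2, 6 without a count filter and 1 with at least 10 counts in every library (range 2 to 5). The 4 female-biased calls became 7 without a count filter (range 3 to 6), and the 6 male-biased and 4 transcription factor calls ranged from 3 to 9 and from 3 to 4. The causes were not tested.

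With the replicate number as a block, 4 axis genes were called, Igfbp2 and Socs2 beside Ghr and Stat5a. Same-numbered livers did not deviate together (correlations of 0.009, -0.263 and 0.209), and 2 of 6 libraries correlated best with their own number. Pairing by number was therefore not seen, but 3 livers per group are too few for this check to exclude it. The number of livers, 3 per group, rather than depth limits what can be said of Cish, Bcl6 and Igfbp2.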

Other observations

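Onecut1, a liver transcription factor known to respond to growth hormone, was singled out after its values were seen. It was at 8.94, 34.4 and 6.81 CPM in GFP1 to GFP3 and at 35.3, 20.4 and 6.55 CPM in Cre1 to Cre3, a log2 difference of 0.31 ± 0.72 (edgeR, adjusted p = 0.844). GFP2 was highest among the GFP livers, and Cre1, Cre2 and Cre3 were in falling order, as for Cish. The lowest GFP liver differed, being GFP3 for Onecut1 and GFP1 for Cish. Igf1r, which encodes the IGF1 receptor and is low in hepatocytes, was at 3.00, 2.96 and 2.04 CPM in GFP1 to GFP3. It was at 3.01, 8.30 and 3.61 CPM in Cre1 to Cre3, with Cre2 apart from the rest (0.90 ± 0.41, edgeR adjusted p = 0.259). Cre2 also had the highest summed cholangiocyte, macrophage and stellate cell markers, and whether these bear on Igf1r was not tested.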
